A study of Mus musculus with 10 samples.

Results

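Marker genes of the mesothelium were followed in visceral white adipose tissue (WAT) of mice. They were the 10 genes Msln, Upk3b, Upk1b, Lrrn4, Wt1, Krt19, Bnc1, Gpm6a, Muc16 and Rspo1, found by their symbols among the 47937 genes that each library listed. The tissue was profiled by mRNA-seq in 10 libraries from 4 groups that combined Mof genotype with diet. Mof, whose official symbol is Kat8, encodes a histone acetyltransferase for lysine residues of histone H4. On standard diet (SD) there were 3 Mof+/+ and 3 Mof+/- libraries from animals 8 weeks old. On high-fat diet (HFD) there were 2 Mof+/+ and 2 Mof+/- libraries from animals 27 weeks old fed HFD for 20 weeks by the series' design text, while the paper describes a longer feeding, so this age and time are uncertain. Diet and age cannot be told apart. The Mof+/- animals carried a germline loss of 1 copy in all cells, and Mof+/+ animals of the same line were the controls.

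The mesothelium is the single layer of flattened cells that covers the peritoneal organs and the surface of visceral fat, and subcutaneous fat has no such covering. Its cells join epithelial traits, such as keratins and a glycoprotein coat, to mesodermal transcription factors. In bulk WAT the layer is a small share of the RNA, and fewer cells of a type and less RNA per cell cannot be told apart. Among the 10 genes, Msln and Muc16 encode surface glycoproteins that bind each other, and Upk3b and Upk1b encode uroplakins, membrane proteins first described in the bladder lining. Lrrn4 encodes a membrane protein with leucine-rich repeats, Gpm6a a membrane glycoprotein that is also abundant in neurons, and Krt19 a keratin. Wt1 and Bnc1 encode zinc finger transcription factors, and Rspo1 a secreted protein that strengthens Wnt signals.

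Promoter sequences in RefSeq (GRCm38.p6, 250 bases before to 50 bases after the start site) were matched for 6 of the 10 genes, with 7 promoters in all, as Gpm6a had 2. Not matched were Msln, Upk1b, Wt1 and Krt19. Upk3b and Lrrn4 are shown because both were high in the same libraries and each holds a searched motif, and Rspo1 because it was high with them and holds none. Capitals mark the motifs, read on both strands: GGAATG for the TEAD factors and GTGGGNG for the core of the WT1 site.
Upk3b (plus strand, chr5:136038246-136038545): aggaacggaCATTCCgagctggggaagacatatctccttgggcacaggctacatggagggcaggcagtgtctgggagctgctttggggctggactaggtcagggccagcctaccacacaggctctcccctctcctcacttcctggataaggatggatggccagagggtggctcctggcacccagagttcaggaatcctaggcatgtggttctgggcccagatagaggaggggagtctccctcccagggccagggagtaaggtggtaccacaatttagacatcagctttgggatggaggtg
Lrrn4 (minus strand, chr2:132880813-132881112): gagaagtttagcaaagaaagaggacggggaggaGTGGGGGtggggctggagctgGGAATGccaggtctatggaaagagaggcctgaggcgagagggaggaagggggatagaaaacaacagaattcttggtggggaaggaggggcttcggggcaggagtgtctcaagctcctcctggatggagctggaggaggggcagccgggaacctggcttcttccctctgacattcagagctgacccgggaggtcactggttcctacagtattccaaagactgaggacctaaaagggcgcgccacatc
Rspo1 (plus strand, chr4:124986180-124986479): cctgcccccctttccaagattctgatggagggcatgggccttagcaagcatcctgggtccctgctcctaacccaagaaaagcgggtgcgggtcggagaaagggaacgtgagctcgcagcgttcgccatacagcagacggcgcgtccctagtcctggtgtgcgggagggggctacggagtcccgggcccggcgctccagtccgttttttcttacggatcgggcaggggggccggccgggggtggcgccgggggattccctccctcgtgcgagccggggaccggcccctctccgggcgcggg
The Upk3b promoter has the TEAD letters on the opposite strand, starting 241 bases before the start site. In Lrrn4 the WT1 letters start 217 bases and the TEAD letters 196 bases before it. The TEAD letters were found in 3 of the 7 promoters (Upk3b, Lrrn4 and 1 of Gpm6a) and in 14.7% of all 32851 RefSeq promoters of this length. The WT1 letters were found in 2 (Lrrn4 and Bnc1) against 31.6% of all promoters, and AGATAA for the GATA factors in 0 against 11.2%. These matches are letters and not sites shown to be bound.

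Sequencing depth ranged from 1044355 to 17171947 counts, and 3 counts, taken as the floor of detection, equalled 2.87 CPM (counts scaled to a library total of 1000000 counts on genes) in HFD Mof+/- library 1 and 0.175 to 0.542 CPM elsewhere. Kat8, the targeted gene, was at 20.4 to 21.5 CPM in SD Mof+/+ and at 11.5 to 18.8 CPM in SD Mof+/-. On HFD it was at 18.1 and 19.2 CPM in Mof+/+ and at 20.1 and 10.5 CPM in Mof+/-, the first from 21 counts with a 95% interval of 12.4 to 30.7. The study's methods name male mice, yet the 3 SD Mof+/- libraries held Xist at 46.1 to 139.1 CPM and no count of 4 Y-linked genes, whereas in the other 7 libraries Xist was at 0 and Y-linked genes were present. Genotype on SD, diet in Mof+/-, and the difference of the genotype effect between the diets can therefore not be told apart from sex. The headings inside the files exchange library 3 of the SD genotypes, and the grouping used here follows the sample labels. Adipocyte markers were abundant in every library, with a sum over 10 genes of 15315 to 51876 CPM.

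Markers of other tissues set some libraries apart. The sum of 4 smooth muscle genes was 1323 CPM in SD Mof+/- library 2 and 3297 CPM in library 3, against 75.5 CPM in library 1 and 90.0 to 212.9 CPM in SD Mof+/+. The sum of 8 uterus and oviduct genes was 45.7 and 190.0 CPM in SD Mof+/- libraries 2 and 3, 2.21 CPM in library 1 and 4.98 to 18.6 CPM in SD Mof+/+. Skeletal muscle genes summed to 58640 CPM in HFD Mof+/- library 1 and to 1411 CPM in library 2, against at most 112.8 CPM elsewhere. In HFD Mof+/- library 1 the smooth muscle sum was 1524.4 CPM, of which Des gave 1512.9 CPM. Endothelial genes summed to 1007 to 2217 CPM in SD Mof+/+ and to 262.1 to 396.9 CPM in SD Mof+/-, and 3 of these 6 genes fell by edgeR, where 1.91% of all genes tested fell. Across 11436 genes, Spearman's rho between transcript length and a gene's log2 CPM relative to the mean of the 10 libraries was 0.35 to 0.40 in SD Mof+/+ and 0.14, -0.17 and -0.43 in SD Mof+/- libraries 1 to 3, so long transcripts were under-represented in library 3.

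**Figure D1:**
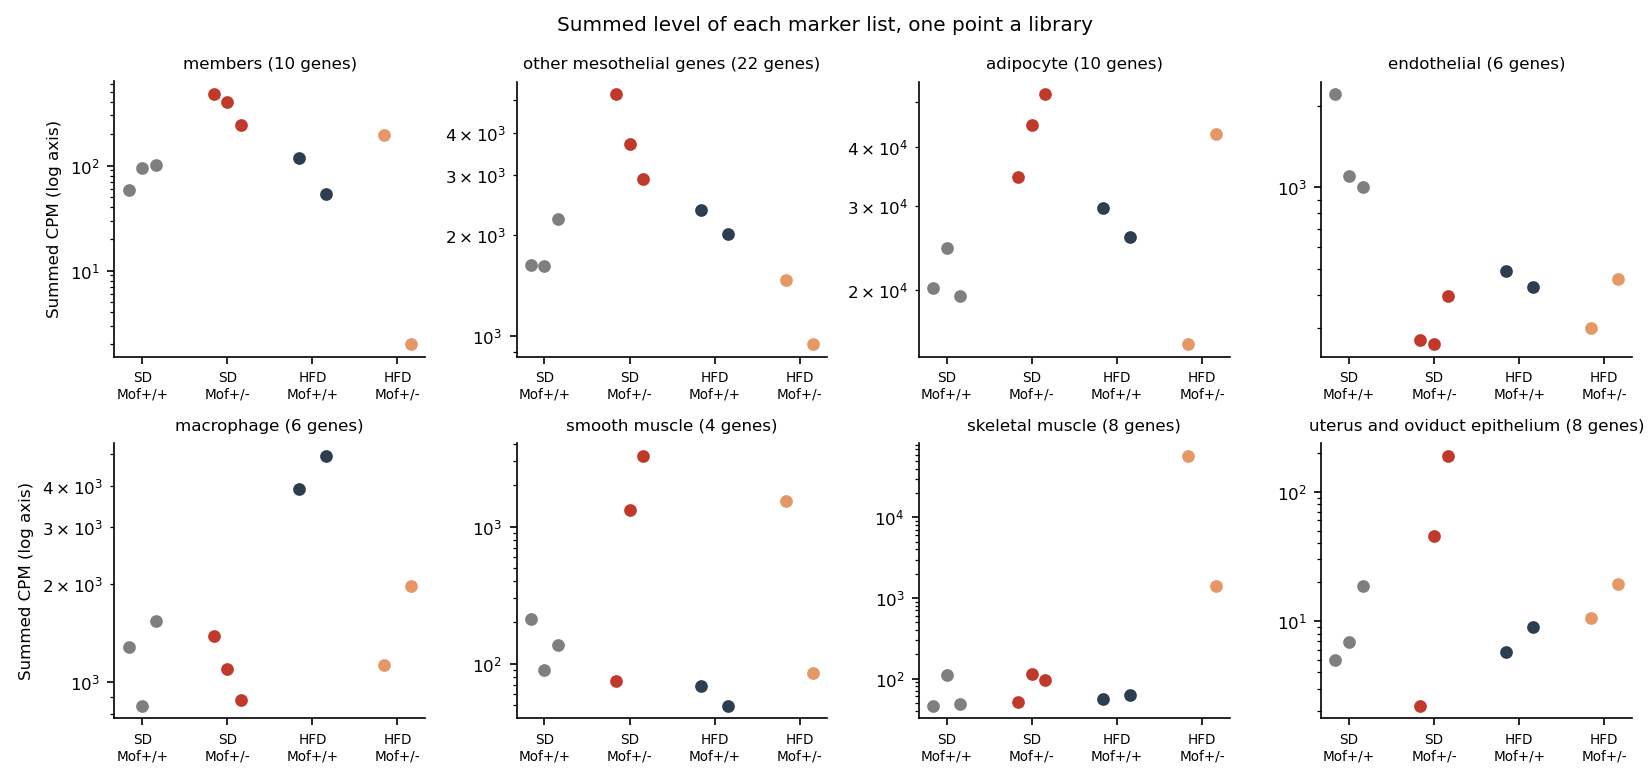
Summed CPM of 8 gene lists (log axis), 1 point for each library, by group. Smooth muscle and uterine genes are high in SD Mof+/- libraries 2 and 3 and low in library 1. The smooth muscle sum is also high in HFD Mof+/- library 1, nearly all from Des. Skeletal muscle genes are high in both HFD Mof+/- libraries, and the 10 mesothelial genes (first panel, members) are high in all 3 SD Mof+/- libraries.

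The summed level of the 10 genes was lowest in HFD Mof+/- library 2 and highest in the SD Mof+/- libraries. In SD Mof+/+ the sum was 58.5, 94.2 and 101.1 CPM, and in SD Mof+/- it was 479.8, 405.2 and 243.1 CPM. In HFD Mof+/+ it was 117.1 and 54.1 CPM. The 2 HFD Mof+/- libraries lay far apart, with 193.4 CPM from 202 counts (95% interval 167.7 to 222.0) and 1.99 CPM from 11 counts (0.993 to 3.56). The 3 SD Mof+/- sums lay above all others, and HFD Mof+/- library 1 lay above all SD and HFD Mof+/+ libraries while library 2 lay below them. The mean sum in SD Mof+/- was 4.45 times that in SD Mof+/+, and 7.75 times when the median over the genes of their relative levels was taken in place of the sum. The mean sum in HFD Mof+/+ was 1.01 times that in SD Mof+/+, and 1.81 times by that median. SD Mof+/- library 1, with the highest sum, had smooth muscle and uterine sums below every SD Mof+/+ library. Its sum of 8 ovary genes was 13.8 CPM, against 2.84 to 9.72 CPM in SD Mof+/+. Its sum of 6 pancreas and liver genes was 78.0 CPM, against 11.4 to 22.6 CPM. The part of other tissues in the summed level was not tested.

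**Figure D2:**
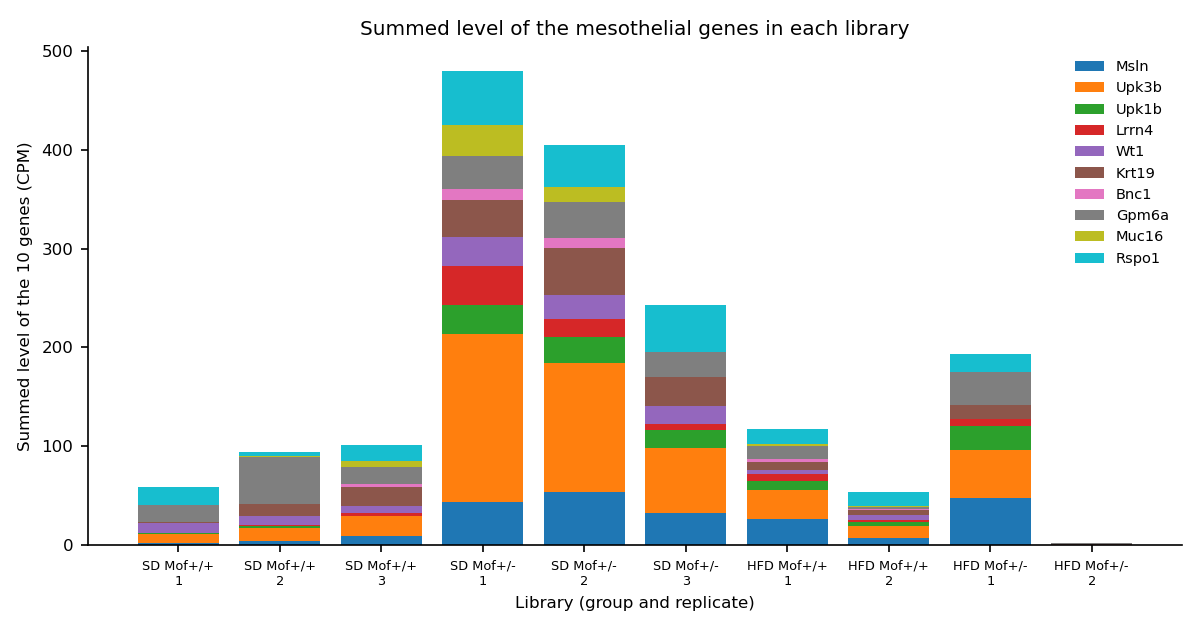
Summed CPM of the 10 genes in each library, stacked by gene. The SD Mof+/- libraries reach 243.1 to 479.8 CPM, the Mof+/+ libraries of both diets stay at 54.1 to 117.1 CPM, and HFD Mof+/- library 2 is at 1.99 CPM.

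On SD, 3 genes of mesothelial surface proteins, Upk3b, Msln and Upk1b, rose in Mof+/-. Upk3b was at 9.32, 12.5 and 20.4 CPM in Mof+/+ and at 169.8, 131.2 and 65.9 CPM in Mof+/-. Msln was at 1.79, 4.52 and 9.16 CPM in Mof+/+ and at 43.6, 53.3 and 32.1 CPM in Mof+/-. Upk1b was at 1.28, 2.05 and 0 CPM in Mof+/+ and at 29.9, 25.9 and 18.4 CPM in Mof+/-. For each of the 3 genes the lowest Mof+/- library lay above the highest Mof+/+ library. Their group means were 122.3 ± 52.5 against 14.1 ± 5.7 CPM for Upk3b, 43.0 ± 10.6 against 5.16 ± 3.73 CPM for Msln and 24.7 ± 5.81 against 1.11 ± 1.04 CPM for Upk1b (s.d. of 3 libraries). All 3 rose in Mof+/- by edgeR, with log2 fold changes of 3.46 ± 0.41 (SE, adjusted p = 0.0113) for Upk3b, 3.42 ± 0.55 (adjusted p = 0.0268) for Msln and 4.81 ± 0.92 (adjusted p = 0.0344) for Upk1b.

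The genes of 3 other surface proteins did not pass the threshold by edgeR. Lrrn4 was at 0, 0.685 and 3.10 CPM in Mof+/+ and at 38.6, 18.2 and 6.25 CPM in Mof+/-, without overlap, and its log2 fold change of 4.39 ± 1.16 did not pass the threshold (edgeR adjusted p = 0.0601). Muc16, the partner of mesothelin, was at 0, 0.959 and 6.32 CPM in Mof+/+ and at 31.4, 15.6 and 0 CPM in Mof+/-. Both its groups held a library at 0, and its log2 fold change was 3.02 ± 1.68 (edgeR adjusted p = 0.298). Gpm6a was at 17.1, 47.5 and 17.2 CPM in Mof+/+ and at 33.0, 36.3 and 25.1 CPM in Mof+/-. The groups overlapped and its log2 fold change was 0.55 ± 0.44 (edgeR adjusted p = 0.467), the smallest of the 10 genes.

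Of the transcription factors, Wt1 was at 9.45, 9.31 and 6.84 CPM in SD Mof+/+ and at 30.2, 24.7 and 18.3 CPM in SD Mof+/-. It rose by a log2 fold change of 1.86 ± 0.37 (edgeR adjusted p = 0.0363), and its groups did not overlap. Bnc1 was at 0, 0 and 2.32 CPM in Mof+/+ and at 11.2, 9.78 and 0 CPM in Mof+/-, with a log2 fold change of 3.49 ± 1.92 (edgeR adjusted p = 0.293). SD Mof+/- library 3, where Bnc1 and Muc16 were both at 0, was the library in which long transcripts were most under-represented, and the merged exons of Muc16 span 26350 bases and those of Bnc1 4646 bases. Wt1, with 6195 bases, had 123 counts in the same library. The part of transcript length in these zeros was not tested.

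Krt19, the keratin, was at 1.92, 12.3 and 19.6 CPM in SD Mof+/+ and at 37.1, 47.6 and 28.8 CPM in SD Mof+/-. Its groups did not overlap, and its log2 fold change of 2.10 ± 0.66 did not pass the threshold (edgeR adjusted p = 0.0918). Rspo1, the secreted member, was at 17.6, 4.38 and 16.1 CPM in Mof+/+ and at 55.1, 42.6 and 48.2 CPM in Mof+/-. It rose by a log2 fold change of 2.30 ± 0.48 (edgeR adjusted p = 0.0394).

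**Figure D3:**
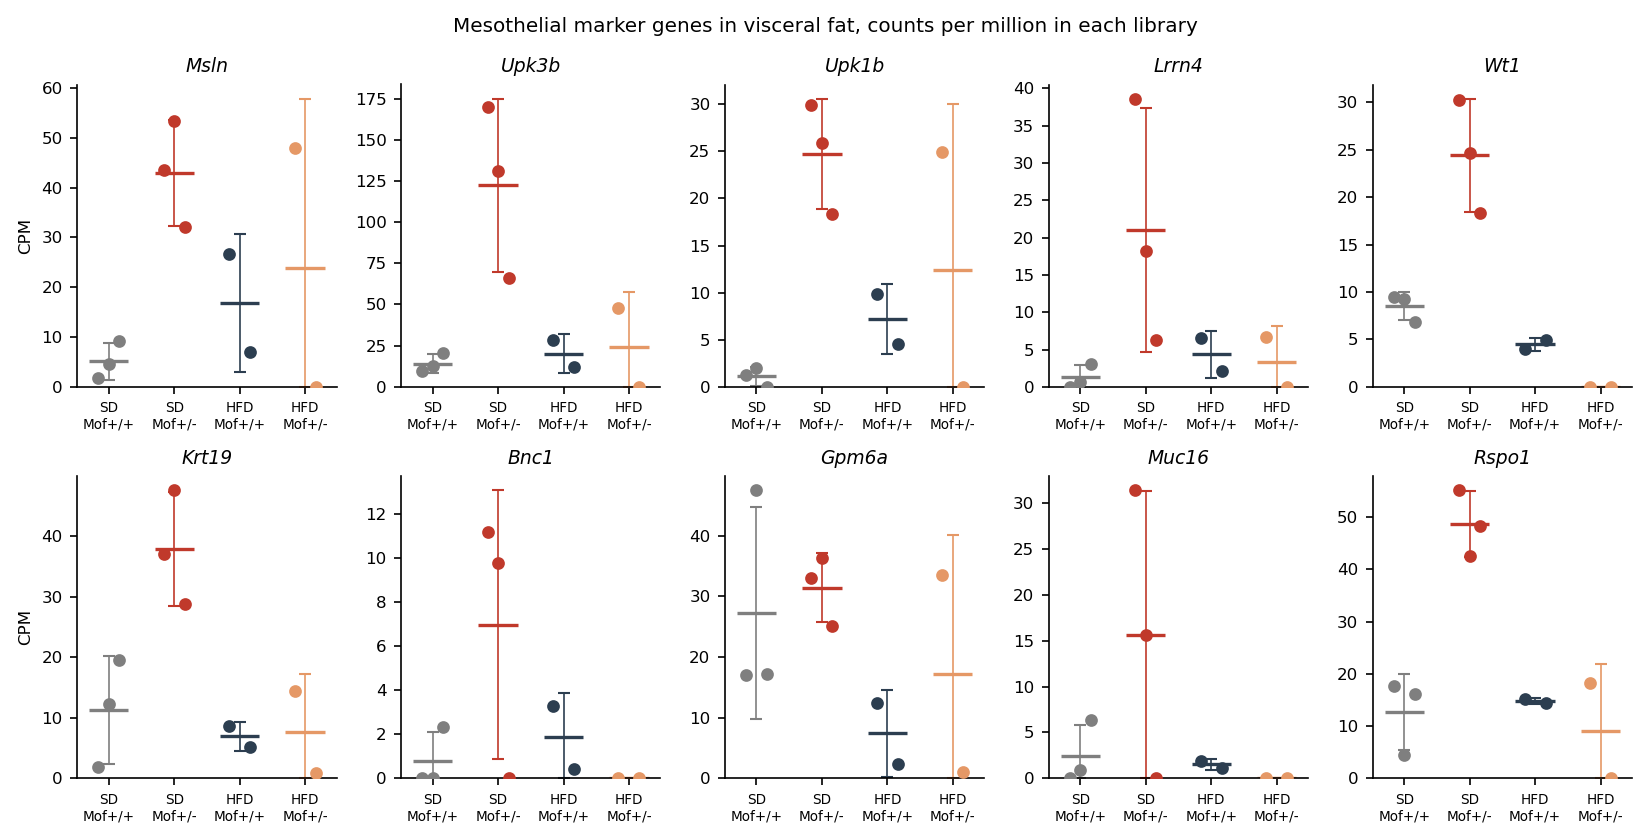
CPM of each of the 10 genes by group, 1 point for each library, with the group mean (horizontal line) and s.d. (error bar, drawn no lower than 0). On SD the Mof+/- points lie above all Mof+/+ points for 7 genes, and Gpm6a, Bnc1 and Muc16 overlap.

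In all, 10 of the 10 genes were tested on SD, 10 had a positive log2 fold change, and 5 rose (Upk3b, Msln, Upk1b, Wt1 and Rspo1), where 3.33% of all 13864 genes tested rose. DESeq2 called 7 of the 10, these 5 with Lrrn4 (adjusted p = 0.000723) and Krt19 (adjusted p = 0.0172), where it called 9.35% of all genes tested higher. The median log2 fold change of the 10 was 3.22, against -0.07 over all genes tested. The Mof+/- libraries lay above all Mof+/+ libraries for 7 of the 10 genes and for 9.71% of all genes tested. All 5 calls were lost when SD Mof+/+ library 1 (adjusted p = 0.0771 to 0.153), SD Mof+/+ library 2 (0.0607 to 0.111) or SD Mof+/- library 2 (0.0631 to 0.117) was left out, and when the third SD libraries were exchanged as in the column headings (1.0). In 1 edgeR fit of all 10 libraries 0 of the 5 passed (adjusted p = 0.114 to 0.248). Without library 3 of both SD groups 7 of the 10 passed, as Rspo1 was lost (adjusted p = 0.0616) and Lrrn4 (0.0237), Bnc1 (0.0247) and Muc16 (0.0316) were gained. Wt1 and Rspo1 also lost theirs without SD Mof+/+ library 3 (adjusted p = 0.102 for both) and without SD Mof+/- library 1 (0.0593 and 0.0514), whereas all 5 were kept without SD Mof+/- library 3. Rspo1 also lost its call with a correction for transcript length (log2 fold change 1.92, adjusted p = 0.0621) and Wt1 with the replicate number as a block (adjusted p = 0.0546). With SD Mof+/- library 1 as the only library of its group, the 5 log2 fold changes were 2.18 to 5.08. This fit was added after the data were seen and assumed that library 1 varies like the Mof+/+ libraries. Library 1 lacked the smooth muscle and uterine signal, but its ovary sum and its pancreas and liver sum lay above SD Mof+/+. The part of sex and of the markers of other tissues in these differences was not tested beyond these values.

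Other genes of the mesothelium lay mostly on the higher side in SD Mof+/-. Of 22 such genes 21 were tested on SD, 18 had a positive log2 fold change and 3 rose, where 3.33% of all genes tested rose, with a median of 1.30. The 3 were Igfbp6, a binding protein of insulin-like growth factors (log2 fold change 3.02 ± 0.33, edgeR adjusted p = 0.00673), Efemp1, a matrix glycoprotein (2.15 ± 0.22, adjusted p = 0.00606), and Pdpn, podoplanin, a surface mucin-like protein (1.36 ± 0.29, adjusted p = 0.0395). All 3 are also made by fibroblasts. The simple epithelial keratin Krt7 was at 0, 0 and 1.68 CPM in Mof+/+ and at 20.3, 19.4 and 8.92 CPM in Mof+/-, with an adjusted p of 0.0515 by edgeR. Krt8 and Krt18, keratins that many epithelia share, overlapped between the groups. They were at 37.9 and 21.6 CPM in SD Mof+/+ library 3, and Krt18 was at 31.7 CPM in SD Mof+/- library 3. Cdh1, the epithelial cadherin, was highest in SD Mof+/+ library 3, at 12.8 CPM against at most 2.83 CPM elsewhere. These 4 genes were chosen for mention after their values were seen.

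Relatives of the 10 genes gave few values to compare. Of 17 relatives 6 passed the filter on low counts on SD, and 1 of them rose, where 3.33% of all genes tested rose. Lrrn4cl, named for its likeness to Lrrn4, was at 19.4, 16.8 and 23.5 CPM in Mof+/+ and at 123.7, 57.1 and 43.0 CPM in Mof+/- (log2 fold change 2.25 ± 0.39, edgeR adjusted p = 0.0301). The bladder uroplakins Upk2 and Upk3a, by contrast with Upk3b and Upk1b, had at most 0.646 CPM in any library, and Upk1a at most 1.23 CPM, and they too were chosen after their values were seen. Rspo3, another R-spondin, was at 6.64, 1.78 and 8.13 CPM in Mof+/+ and at 0.874, 16.5 and 54.4 CPM in Mof+/-. It was high in the 2 SD libraries with smooth muscle signal.

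For the R-spondin pathway, 9 of 12 receptors and Wnt feedback genes were tested on SD and 1 rose, where 3.33% of all genes tested rose. The median log2 fold change of the 9 was -0.46, and 6 of them had a negative value. Nkd1, an inhibitor of Wnt signals, was at 9.20, 11.5 and 11 CPM in Mof+/+ and at 31.6, 34.1 and 49.8 CPM in Mof+/- (log2 fold change 2.24 ± 0.34, edgeR adjusted p = 0.0235). Axin2, a feedback target of Wnt signals, was at 42.1, 95.5 and 47.9 CPM in Mof+/+ and at 16.9, 6.33 and 2.38 CPM in Mof+/-, with an adjusted p of 0.0540. Lgr4, a receptor for R-spondins, was at 38.8 to 44.7 CPM in Mof+/+ and at 19.7 to 33.7 CPM in Mof+/-. With TMM scaling its log2 fold change was only -0.21 ± 0.30 (edgeR adjusted p = 0.696). Acta2 and Tagln, smooth muscle genes that are also followed in the mesothelial-to-mesenchymal transition, were high in SD Mof+/- libraries 2 and 3, at 982.1 and 1823 CPM and at 1337 and 2928 CPM, and low in library 1, at 93.8 and 80.3 CPM.

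Between the diets in Mof+/+, where all 5 libraries held Y-linked genes, 0 of the 10 genes passed the threshold in edgeR, 0 had an unadjusted p under 0.05, and 0 passed in DESeq2. Of all 14939 genes tested, 9.75% changed. The median log2 fold change of HFD over SD was 0.50 for the 10 genes and -0.04 over all. Msln was at 26.6 and 7.06 CPM on HFD against 1.79 to 9.16 CPM on SD (log2 fold change 1.83 ± 0.78, adjusted p = 0.177). Upk1b was at 9.82 and 4.56 CPM against 0 to 2.05 CPM (2.79 ± 1.29, adjusted p = 0.209), without overlap. On the lower side, Gpm6a was at 12.5 and 2.37 CPM against 17.1 to 47.5 CPM (-1.77 ± 0.79, adjusted p = 0.195) and Wt1 at 4 and 4.93 CPM against 6.84 to 9.45 CPM (-0.81 ± 0.52, adjusted p = 0.354), both without overlap. Rspo1 was at 15.2 and 14.4 CPM, within the range on SD. The 10 genes thus had 6 positive and 4 negative log2 fold changes, none past the threshold.

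**Figure D4:**
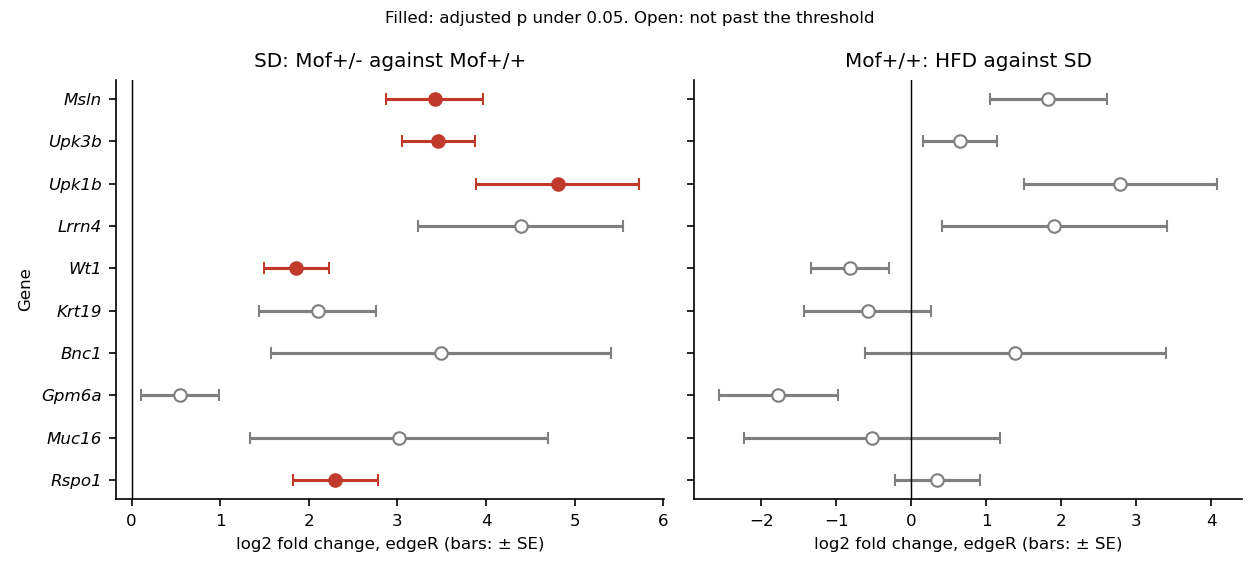
Log2 fold change of the 10 genes with its SE (edgeR), for genotype on SD (left) and for diet in Mof+/+ (right). Filled points passed an adjusted p of 0.05: 5 genes on the left, at 1.86 to 4.81, and none on the right.

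Among related genes, Pdpn (log2 fold change 1.43 ± 0.26, edgeR adjusted p = 0.0230) and Aldh1a2, an enzyme of retinoic acid synthesis (1.65 ± 0.35, adjusted p = 0.0338), rose on HFD in Mof+/+, 2 of 20 other mesothelial genes tested, where 6.02% of all genes tested rose. The median log2 fold change of the 20 was -0.07, and 11 of them had a negative value. Of the 6 relatives of the members tested 2 fell, and of the 8 Wnt genes 2 fell and 1 rose, where 3.73% of all genes tested fell. Bnc2, a relative of Bnc1, was at 20.9, 31.4 and 14.5 CPM on SD and at 2.07 and 3.00 CPM on HFD and fell (edgeR adjusted p = 0.0178). Lrrn1, a relative of Lrrn4, fell from 12.6, 11.9 and 6.84 CPM to 1.81 and 1.12 CPM (edgeR adjusted p = 0.0446). In the Wnt list Axin2 and the co-receptor Lrp5 fell (edgeR adjusted p = 0.0238 and 0.0121) and Nkd1 rose (0.00650). These libraries also differed in macrophage markers, whose sum was 3907 and 4957 CPM on HFD against 845.5 to 1535 CPM on SD.

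On HFD, the 2 Mof+/- libraries gave opposite pictures. In library 1, with 1044355 counts, Msln and Upk3b were each at 47.9 CPM from 50 counts, above both Mof+/+ libraries, and Upk1b was at 24.9 CPM from 26 counts. In library 2, with 5531786 counts, Msln, Upk3b, Upk1b, Lrrn4, Wt1, Bnc1, Muc16 and Rspo1 had no count. At the mean level of HFD Mof+/+, 111.8 counts of Upk3b, 93.1 of Msln and 81.9 of Rspo1 would have been seen there. The 11 counts of the 10 genes in library 2 were 5 of Krt19 and 6 of Gpm6a. Wt1, Bnc1 and Muc16 were at 0 in both Mof+/- libraries. Against the floor of 3 counts per library, a mean of 1.71 CPM over the 2 libraries, the Mof+/+ mean of Wt1 was at least 2.62-fold higher, and the Mof+/+ mean of Muc16, 1.53 CPM, lay under the floor. Bnc1 was at 3.29 CPM in HFD Mof+/+ library 1 and at 0.437 CPM in library 2, which lay under that floor, so its mean gives no bound that both libraries share. In library 1 alone, 1.95 counts of Bnc1 and 1.6 of Muc16 would have been seen at the Mof+/+ mean, under the floor, so their absence there was not detectable at this depth. For Wt1 it would have been 4.67 counts. The 95% upper limit of its zero in that library, 3.53 CPM, lay below both Mof+/+ values. This limit lay within the 95% interval of HFD Mof+/+ library 1, 3.07 to 5.13 CPM.

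By edgeR, 0 of the 9 genes tested (Bnc1 did not pass the filter on low counts) and 0% of all 14120 genes passed the threshold between the genotypes on HFD. At an unadjusted p under 0.05 there were 2 of the 9 (Wt1 and Muc16) and 1732 of all genes, and DESeq2 called 0 of the 9 and 209 of all (1.48%). Simulated 4-fold changes at the spread of these libraries were recovered in 0% of 200 genes, as they were for diet in Mof+/- and for the interaction, against 48% on SD. Skeletal muscle markers lay above all Mof+/+ libraries in both HFD Mof+/- libraries, at 58640 and 1411 CPM. The part of muscle tissue and of the low depth in these values was not tested.

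Between the diets in Mof+/-, all 10 genes were tested and all 10 log2 fold changes were negative, with a median of -2.46 against -0.26 over all genes. None of the 10, and 0% of all 13610 genes tested, passed the threshold in edgeR. At an unadjusted p under 0.05 there were 2 of the 10 (Wt1 and Muc16) and 1166 of all genes, and DESeq2 called 1 of the 10, Wt1, and 402 of all (2.95%). Wt1 was at 18.3 to 30.2 CPM in SD Mof+/- and at 0 in both HFD Mof+/- libraries, at least 14.3-fold higher on SD against the same floor. For Msln, Upk1b and Gpm6a the HFD Mof+/- library 1 lay within the SD range, at 47.9, 24.9 and 33.5 CPM, and the sign of the log2 fold change depended on library 2. Without library 2 it was 0.25 for Msln, 0.10 for Upk1b and 0.19 for Gpm6a.

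Whether the genotype difference itself differed between the diets was tested with all 10 libraries. Only the SD Mof+/- libraries lacked Y-linked counts, so this interaction cannot be told apart from sex. None of the 10 genes and 0.0881% of all 15897 genes passed the threshold by edgeR. The smallest adjusted p of the 10 was 0.0773, for Wt1, and DESeq2 called 1 of the 10, Wt1, and 490 of all genes (3.08%). The comparisons on both diets and in both genotypes share libraries, so their values are given side by side and were not compared further.

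Per length, the gene with the highest mean level was Gpm6a in SD Mof+/+ and Upk3b in SD Mof+/-. In TPM, counts per base of merged exons scaled to a library total of 1000000, the mean levels in SD Mof+/+ were led by Gpm6a at 24.1 ± 16.3, Rspo1 at 18.3 ± 10.2, Krt19 at 17 ± 13 and Upk3b at 11.1 ± 4.18 (s.d. of 3 libraries). The place of Gpm6a rested on library 2, at 43.0 TPM against 15.0 and 14.5 TPM in libraries 1 and 3, and without that library its mean was 14.7 TPM against 24.1 TPM for Rspo1. These neighbours did not differ by more than the larger of their s.d. values. In SD Mof+/- the levels were led by Upk3b at 82.7 ± 41.5, Rspo1 at 58.6 ± 11.6 and Krt19 at 47.8 ± 14.3 TPM, and Gpm6a followed in rank 6 at 22.9 ± 5.77 TPM. In HFD Mof+/+ they were led by Rspo1 at 20.0 ± 0.894, Upk3b at 15.0 ± 8.94 and Msln at 14.4 ± 11.9 TPM (s.d. of 2 libraries). Bnc1 and Muc16 were the lowest in both, at 0.452 and 0.252 TPM in Mof+/+ and 3.69 and 1.47 TPM in Mof+/-. Of 9 neighbouring pairs in each order, 2 differed by more than the larger s.d. in SD Mof+/+ (Upk3b over Msln, Wt1 over Upk1b), 2 in SD Mof+/- (Krt19 over Msln, Wt1 over Bnc1) and 0 in either HFD group. In share of the summed counts, Upk3b made up 13.2% to 20.2% in SD Mof+/+ and 27.1% to 35.4% in SD Mof+/-, while Gpm6a made up 17% to 50.4% and 6.87% to 10.3%.

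Across the 10 libraries, of which the 2 HFD Mof+/- libraries hold only 213 counts of these genes, each of the 10 was correlated with the mean pattern of the other 9. Pearson's r was highest for Upk3b (0.96), Msln (0.91) and Krt19 (0.90) and lowest for Wt1 and Bnc1 (both 0.62). Outside all lists, the genes whose log2 CPM was most like the mean pattern of the 10 among 11341 genes were Las1l (r = 0.93), Col14a1 (0.92), Twsg1 (0.91), Gabra3 (0.90), Socs3 (0.89), Fam204a, Pamr1, Cd55 and Ptgis (each 0.87) and Dtna (0.86). Col14a1, a fibril-associated collagen, was at 256.7, 123.8 and 100.5 CPM in SD Mof+/- and at 47.7 to 84.8 CPM in SD Mof+/+. The points share libraries that differ in sex, depth and transcript length, and the r values are a description.

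The 10 genes lie on 9 chromosomes, as Wt1 and Lrrn4 share chromosome 2. In GENCODE M21 (GRCm38) all 10 are protein-coding, with Upk3b at chr5:136038496-136046487, Msln at chr17:25748613-25754378 and Wt1 at chr2:105126529-105173616. As the libraries did not mark strand, reads of a gene and an antisense neighbour cannot be told apart. Wt1os, antisense beside Wt1, had at most 7.14 CPM (48 counts, SD Mof+/- library 3), Gm12930 over the start of Rspo1 had no count, and 4833418N17Rik over the start of Bnc1 had 4 counts in 1 library. The near copies Upk3bl of Upk3b and Mslnl of Msln had no count.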

How the data were processed

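mRNA-seq libraries (poly(A) selected, kit without strand marking) were made from visceral WAT of 10 samples. The values deposited by the authors are raw counts for each gene, not normalized. They were made in snakePipes, with STAR for alignment to GRCm38 and featureCounts for counting (Subread 1.5.0-p1 in the submitters' notes). The annotation release is not given in the sources used here. Symbols came from GENCODE M21 after the version was dropped, for 47224 of 47937 identifiers. Groups followed the sample labels. The labels call the samples biological replicates, and the grouping in the column headings was tried as an alternative.

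CPM scaled each library to 1000000 counts on genes, and TPM used merged exon lengths. Each pair of groups was fitted alone in edgeR 4.0.16, by its quasi-likelihood test with TMM scaling, filterByExpr and a Benjamini-Hochberg threshold of 0.05, and the interaction was fitted to all 10 libraries. DESeq2 1.42.0 was an alternative. R 4.3.3 and Python 3.11.15 were used. Intervals are exact Clopper-Pearson at 95% and, like the floor of 3 counts, cover counting error only. Fits were tested on simulated data with 200 genes changed 4-fold.

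The 10 genes and all gene lists were chosen with earlier results of these data known. Named by rule were the 10 genes, listed genes past the threshold or among the highest 6 of their list, and the 10 genes of highest Pearson r (mean CPM of at least 5). Further genes were named outside this rule, some of them after their values were seen. The list of gene family relatives, of the Wnt pathway and of other tissues came from general knowledge. Replicate numbers did not pair the samples. The values of some genes are not reported here.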

Additional observations from a re-analysis of the deposited data

Results flagged for a closer look

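The genotype difference of Wt1 had opposite signs on the 2 diets in every library. On SD it was higher in all Mof+/- libraries (log2 fold change 1.86), and on HFD both Mof+/- libraries were at 0 against 4 and 4.93 CPM in Mof+/+. The test of the difference between the diets gave an adjusted p of 0.0773 by edgeR. The zero of HFD Mof+/- library 1 rested on a depth where 4.67 counts would have been seen at the Mof+/+ mean. Its 95% upper limit, 3.53 CPM, lay within the interval of HFD Mof+/+ library 1, 3.07 to 5.13 CPM. Nkain4 (log2 fold change on SD 2.26) was higher in all SD Mof+/- libraries. On HFD it was at 0 and 1.08 CPM in Mof+/- against 6.98 and 2.37 CPM in Mof+/+, where the zero stands for a floor of 2.87 CPM, so that a lower level in that library than in both Mof+/+ libraries is not shown. The adjusted p for the difference was 0.249 by edgeR. C3, the complement component (log2 fold change on SD 1.30), was higher in all SD Mof+/- libraries and, at 697.1 and 624.6 CPM against 1787 and 1502 CPM, lower in both HFD Mof+/- libraries, with an adjusted p of 0.151 by edgeR. Neither difference passed the threshold. The groups of 2 and 3 libraries are too small for the test of an outlying value. On SD the genotypes also differed in sex and on HFD they did not, so these sign changes cannot be told apart from sex.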

How the results depend on the processing

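On SD the 10 log2 fold changes kept their positive sign under every alternative tried, and of the 5 calls DESeq2, DESeq2 size factors and no filter on low counts kept 5, the replicate block, the correction for transcript length and leaving out library 3 of both SD groups 4, and all 10 libraries in 1 fit 0. Replicate numbers pair no animals (correlation of deviations at most 0.03), so the replicate block is no paired test. Cause was not tested for any change below. The genes called on SD (727) were 2211 by DESeq2, 1840 without a filter, 428 with the replicate block, 194 in 1 fit of all libraries, 227 with the length correction, 0 with the headings' grouping, 3 with SD Mof+/- library 1 alone in its group (added after seeing the data), and 17 to 1026 with 1 library left out. Genes called between genotypes on HFD (0) were 209 by DESeq2, 200 with the replicate block, 1 in 1 fit, 79 with the length correction and 0 to 3456 with 1 library left out (3456 without HFD Mof+/- library 2). Between diets in Mof+/+ (1457) they were 2990 by DESeq2, 142 in 1 fit, 890 with the length correction, 0 with the headings' grouping, 2230 without library 3 of both SD groups and 19 to 2230 with 1 left out. Between diets in Mof+/- (0) they were 402 by DESeq2, 429 without a filter, 245 with the replicate block, 189 in 1 fit, 127 with the length correction, 18 with SD Mof+/- library 1 alone and 0 to 3903 with 1 left out. For the interaction (14) they were 490 by DESeq2, 380 without a filter, 26 with the length correction, 0 with the headings' grouping, 2 without library 3 of both SD groups, 2 with SD Mof+/- library 1 alone and 4 to 3163 with 1 left out.

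Signs reversed only for values that had not passed the threshold. Between genotypes on HFD, Lrrn4 became 0.05 by DESeq2 and 1.92 with the length correction and Rspo1 1.52 with it, and with the replicate block Msln was -1.70, Upk3b -2.06, Upk1b -1.49 and Krt19 -0.52. With 1 library left out the values ran from -10.41 to 2.10 for Msln, -10.67 to 1.59 for Upk3b, -9.18 to 2.13 for Upk1b, -8.46 to 0.96 for Lrrn4, -2.73 to 1.39 for Krt19, -2.57 to 3.16 for Gpm6a and -10.22 to 0.64 for Rspo1, where large negative values come from a library at 0 and are no bound. Between diets in Mof+/+, the replicate block gave 0.49 for Krt19 and 2.38 for Muc16, the length correction -0.05 for Rspo1, the headings' grouping -0.75 for Upk3b, -0.27 for Upk1b and -0.86 for Rspo1, and leaving out library 3 of both SD groups 0.06 for Krt19 and 1.76 for Muc16. With 1 library left out the ranges were -0.14 to 1.12 (Upk3b), -1.08 to 0.06 (Krt19), -0.67 to 2.19 (Bnc1), -1.11 to 1.76 (Muc16) and -0.06 to 0.67 (Rspo1). Between diets in Mof+/- the length correction gave 0.97 for Msln, 0.71 for Upk1b and 0.89 for Gpm6a, with ranges of -12.00 to 0.25, -11.20 to 0.10 and -4.89 to 0.19 when 1 library was left out. In the interaction Krt19 was 0.10 with the length correction and Gpm6a -3.15 to 2.57 with 1 left out.

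The summed level was 4.45 times higher in SD Mof+/- (3.83 to 5.23 with 1 library left out) and 7.75 as the median over the genes of their relative levels, which for HFD over SD in Mof+/+ gave 1.81 in place of 1.01. The ratio of HFD Mof+/- to HFD Mof+/+ was 1.14, and 0.0232 to 2.26 with 1 left out. By Spearman's rho, 2 of the 10 most alike genes stayed among the highest 10.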

Other observations

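Outside the mesothelial genes, 3 of 6 endothelial genes fell in SD Mof+/- and 0 rose by edgeR, where 1.91% of all genes tested fell, with a median log2 fold change of -1.69, and the sum was 262.1 to 396.9 CPM against 1007 to 2217 CPM in Mof+/+. The same 6 genes had a median of -1.51 between the diets in Mof+/+, where 3 fell, as did 3.73% of all genes tested. Macrophage markers were 4 of 6 higher on HFD in Mof+/+ by edgeR, where 6.02% of all genes tested rose, with a median log2 fold change of 1.76. Adipocyte markers were 4 of 10 higher in SD Mof+/- by edgeR, where 3.33% of all genes tested rose.

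Seminal vesicle genes (6 genes) summed to at most 14.6 CPM, in SD Mof+/+ library 1, and were all at 0 in SD Mof+/- and on HFD. Epididymis genes (10 genes) summed to at most 10.5 CPM, in the same library, and testis genes (6 genes) to at most 3.96 CPM. Ovary genes (8 genes) summed to 13.8, 30.5 and 5.06 CPM in SD Mof+/-, and to at most 9.72 CPM elsewhere. Star, the only 1 tested on SD, rose (log2 fold change 3.33 ± 0.72, edgeR adjusted p = 0.0413), where 3.33% of genes tested rose. Genes of the bladder lining and other epithelia (8 genes) summed to at most 40.8 CPM. Genes of pancreas and liver (6 genes) summed to 78.0 to 344.5 CPM in SD Mof+/- against 11.4 to 22.6 CPM in SD Mof+/+. In the 4 HFD libraries the sum was 37.3 to 126.5 CPM. The 2 tested on SD, Alb and Cela1, rose, with log2 fold changes of 3.66 and 2.91 (edgeR adjusted p = 0.0361 and 0.0279). The share of all genes tested that rose was 3.33%. Adipose progenitor genes (6 genes) summed to 774.6 to 3874 CPM. All 6 were tested on SD and had a positive log2 fold change in Mof+/-, with a median of 0.53. Pi16 rose (1.57 ± 0.37, edgeR adjusted p = 0.0475), 1 of the 6, where 3.33% of all genes tested rose.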
